A study of Homo sapiens with 6 samples.

Results

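The genes described here are 38 that act at replication origins and forks or license entry into S phase, read by gene symbol from a table of RNA-seq read counts. All 38 had a row among the 31413 genes of the table, and all 38 were among the 17160 genes that had enough reads to be tested. RNA came from C42, usually spelled C4-2, an established prostate carcinoma line that descends from LNCaP, kept in RPMI with serum. The 3 shNSD2 libraries, numbered 1, 2 and 3, came from C42 cells carrying a short hairpin RNA against NSD2, also named WHSC1, and the 3 shCTR libraries, numbered 1, 2 and 4, from C42 cells carrying a control hairpin. NSD2 encodes an enzyme that dimethylates histone H3 at lysine 36. The labels give the hairpin by its target only and a single line, give no time after the hairpin was introduced, and do not tell whether separate cultures were used. The p-values therefore rest on the variation among these 6 libraries, and that variation could be technical only.

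Before a cell copies its DNA, the origin recognition complex with CDC6 and CDT1 loads the ring-shaped MCM2-7 helicase onto chromatin. CDC45 and the GINS complex then join the ring to form the active helicase, DNA polymerase alpha and primase start each strand, polymerases epsilon and delta extend it on the PCNA clamp that replication factor C loads, and FEN1 and LIG1 process and seal the fragments of the lagging strand. E2F1 and E2F2 are transcription factors that activate many of these genes once cyclin E and other cyclin-dependent kinase partners release them from the RB protein, so transcripts of this machinery are abundant in proliferating cells such as a cancer line and low in resting ones.

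Total counts were 19753998, 19448983 and 20462197 in the shNSD2 libraries, against 20551654, 20665494 and 19412896 in the shCTR libraries. Levels are given in CPM, read counts divided by the library total after edgeR's TMM scaling, and 3 counts, the floor used for detection, came to 0.145 to 0.156 CPM per library, counting error only. NSD2 itself stood at 85.3, 86.4 and 89.7 CPM in shNSD2 1, 2 and 3, against 219, 223 and 200.1 CPM in shCTR 1, 2 and 4, which is 40.7% of the control mean (log2 fold change -1.30, SE 0.0870; edgeR quasi-likelihood, adjusted p = 8.03e-05). Permuting the labels of the 6 CPM values gave an exact two-sided p of 0.1, which is the lower limit of this design. Of the luminal prostate markers, KLK3 stood at 5590.0 to 6021 CPM in shNSD2 and 6382 to 7038 CPM in shCTR. KLK2, another luminal marker, was called lower, and KRT8 and KRT18 were called higher. The leukocyte marker CD14 was at 0.103 to 0.204 CPM in shNSD2 and 0.209 to 0.2445 CPM in shCTR, at or near the floor. Of the fibroblast and endothelial markers 3 of 5 had a row, with sums of 7.37 to 8.06 CPM in shNSD2 and 5.47 to 5.87 CPM in shCTR, nearly all of it VWF, which was called higher, while PECAM1 was at 0 in 5 of 6 libraries. Of the basal markers 1 of 3 had a row, KRT14, at 0.561 to 1.23 CPM in shNSD2 and 0.626 to 1.61 CPM in shCTR. What part these markers have in the results was not tested. The control libraries were spread along the difference between the groups. Over the 11218 genes that averaged 5 CPM or more, shCTR 4 lay 0.49 of the way from the control mean toward the shNSD2 mean, shCTR 1 lay at -0.44, on the far side, and shCTR 2 at 0. Over the 38 replication genes shCTR 4 lay at 0.02, shCTR 1 at -0.03 and shCTR 2 at 0.07. These shares do not show that the controls agreed gene by gene. The highest control was shCTR 4 for 24 of the 38, shCTR 1 for 8 and shCTR 2 for 6.

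The replication fork and origin genes were lower in the shNSD2 cells as a group. Of the 38, 30 fell at an adjusted p under 0.05 (edgeR quasi-likelihood test, Benjamini-Hochberg adjustment over all genes tested) and 0 rose, where 15.2% of all genes tested fell and 15.5% rose. The fitted log2 fold change was negative for all 38, with a median of -0.46 beside 0.01 over all genes tested, and the median gene stood at 72.9% of its shCTR mean. All 3 shNSD2 libraries lay below all 3 shCTR libraries for 34 of the 38 genes, against 22.8% of all genes tested. Among tested genes that averaged at least 10 CPM, as all 38 did, 17.6% fell. The counts called lower per complex, given below, stand beside that share. Most falls were under 1.5-fold. A decrease of at least 1.5-fold was fitted for 12 of the 38, against 11.1% of all genes tested at any p, and a decrease of at least 2-fold for 1, CCNE2, against 3.61%. Tested against a fold of 1.2 in place of no change, 16 of the 38 were lower, against 6.76% of all genes. In RNA from a whole culture, fewer cells in S phase and less transcript per cell cannot be told apart.

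The 38 transcripts together summed to 1965, 2260.0 and 2226 CPM in the shNSD2 libraries, against 3041, 3026 and 3162 CPM in the shCTR libraries. The knockdown libraries were not alike. Library shNSD2 1 was the lowest of its group for 34 of the 38 genes, and shCTR 4 was the highest of its group for 24. The median of the log2 ratio to the shCTR mean was -0.64 in shNSD2 1, -0.40 in shNSD2 2 and -0.41 in shNSD2 3. Without shNSD2 1 the number of genes called lower was 22, where 9.07% of all genes tested were called lower, and the median log2 fold change of the 38 was -0.39. Without shCTR 4 it was 31, where 22.6% of all genes tested were called lower.

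**Figure D1:**
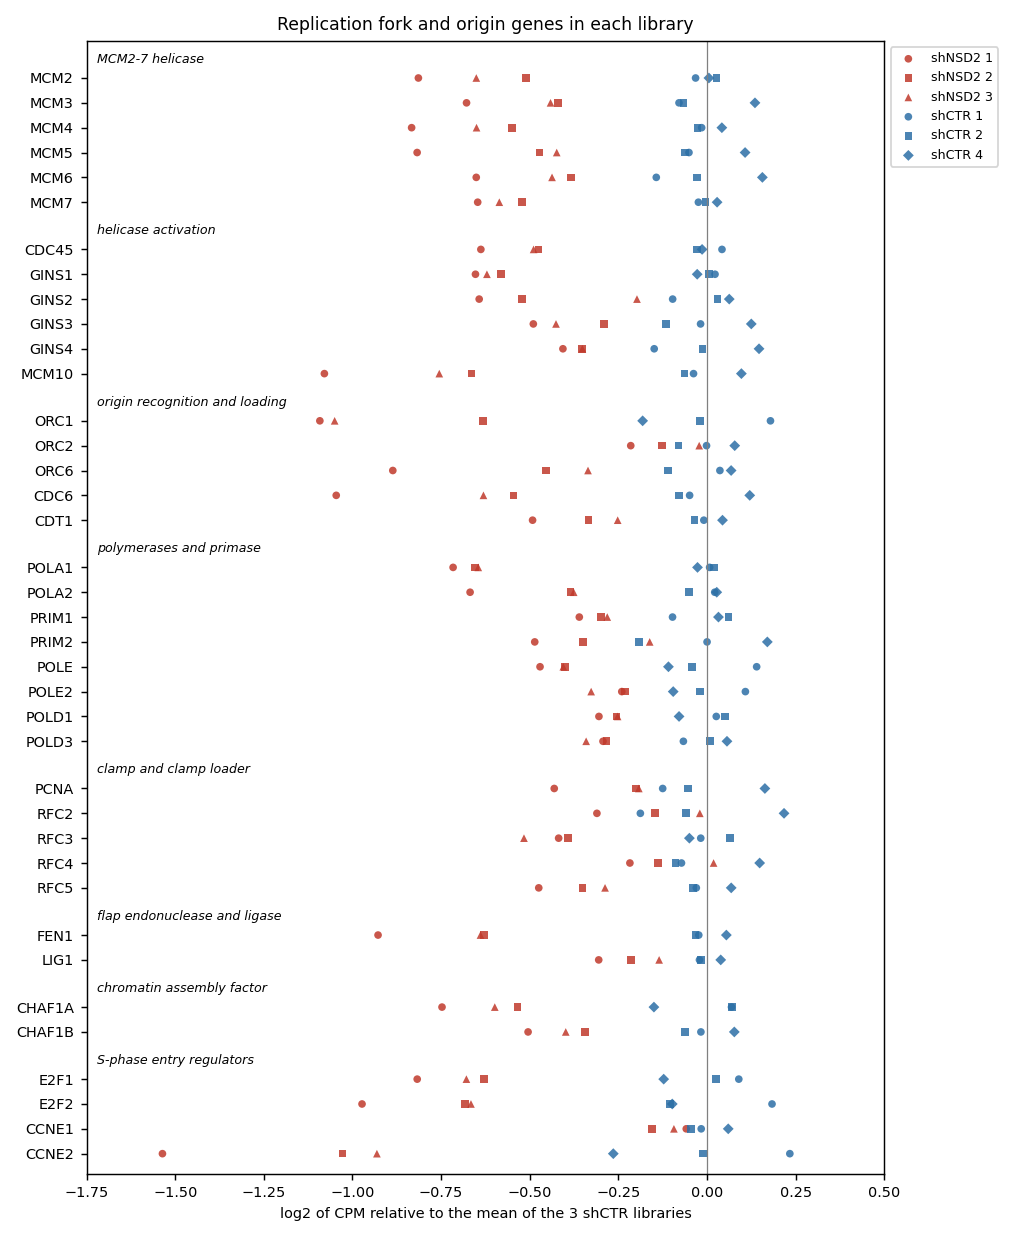
Level of each of the 38 genes in each library, as log2 of its CPM relative to the mean of the 3 shCTR libraries (horizontal axis), with genes listed by complex; red symbols are shNSD2 libraries and blue symbols shCTR libraries. The red symbols lie left of the blue ones for 34 of 38 genes, and the red circle, shNSD2 1, is the leftmost red symbol for 34.

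The promoters of these genes were read to show the E2F letters that many of them share. RefSeq promoter sequence on GRCh38.p14, 250 bases before to 50 bases after the transcription start, was at hand for 33 of the 38 genes. A match to any of TTTCCCGC, TTTCGCGC, TTTGCCGC or TTTGGCGC on either strand, an E2F-type sequence, was found in 18 of the 33 (54.5%), in 694 of 10716 tested genes with an entry (6.48%) and in 1090 of 27305 genes with an entry (3.99%). CCAAT, the letters that NF-Y reads, occurred on either strand in 18 of 33 (54.5%), against 43.0% of the tested genes. TTTGAA or TTCGAA, the letters of the CHR element of mitotic genes, occurred in 1 of 33 (3.03%), MCM6, against 15.1% of the tested genes. Counting only the 250 bases before the start, 13 of the 33 had an E2F match (39.4%), against 5.48% of the tested genes. A stretch upstream of the start is printed for a gene of each of 6 roles, 5′ to 3′ on the coding strand in lower case, with the E2F matches in capitals. Each is the gene called lower with the smallest p in its role among those with an E2F match before the start. All printed stretches therefore hold a match by selection. MCM7 (minus strand, chr7:100101398-100101589) is a helicase subunit and GINS2 (minus strand, chr16:85688955-85689074) a helicase cofactor. CDT1 (plus strand, chr16:88803669-88803788) loads the helicase and POLA1 (plus strand, chrX:24693776-24693917) is the catalytic subunit of polymerase alpha. RFC3 (plus strand, chr13:33818029-33818148) is a clamp loader subunit, and E2F1 (minus strand, chr20:33686386-33686505) is itself an E2F. Their first matched bases lie 187 and 9 bases before the start in MCM7, 31 in GINS2, 35 in CDT1, 137 in POLA1, 55 in RFC3, and 33 and 20 in E2F1.
MCM7: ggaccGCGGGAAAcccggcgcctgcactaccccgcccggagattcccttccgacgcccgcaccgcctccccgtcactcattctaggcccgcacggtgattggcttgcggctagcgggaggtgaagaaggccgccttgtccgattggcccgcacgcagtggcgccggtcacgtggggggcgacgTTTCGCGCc
GINS2: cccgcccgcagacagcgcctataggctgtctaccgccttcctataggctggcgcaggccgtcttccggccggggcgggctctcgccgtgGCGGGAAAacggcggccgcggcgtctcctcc
CDT1: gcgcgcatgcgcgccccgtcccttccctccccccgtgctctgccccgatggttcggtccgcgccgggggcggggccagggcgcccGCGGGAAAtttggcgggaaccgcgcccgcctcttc
POLA1: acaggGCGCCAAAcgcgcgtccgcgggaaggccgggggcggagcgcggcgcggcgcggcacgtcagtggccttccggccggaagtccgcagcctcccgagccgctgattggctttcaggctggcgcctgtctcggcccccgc
RFC3: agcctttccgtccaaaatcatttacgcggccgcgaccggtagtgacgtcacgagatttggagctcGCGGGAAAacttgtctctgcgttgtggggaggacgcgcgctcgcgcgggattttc
E2F1: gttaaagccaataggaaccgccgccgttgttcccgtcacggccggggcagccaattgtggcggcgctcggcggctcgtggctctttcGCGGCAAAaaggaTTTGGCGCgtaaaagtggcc

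**Figure D2:**
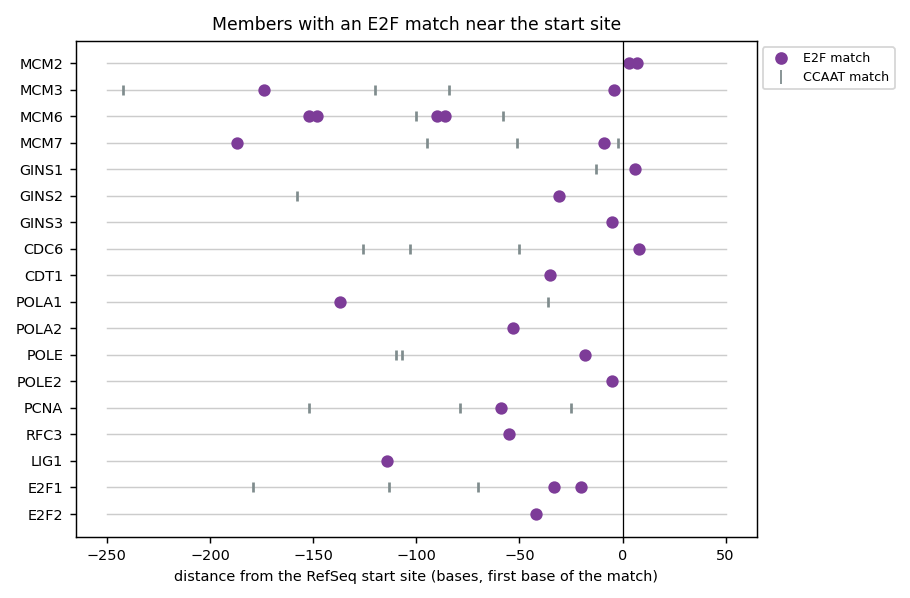
Position of each E2F match (purple) and each CCAAT match (grey ticks) relative to the RefSeq transcription start (vertical line), in bases, for the 18 genes with an E2F match; each row is the window from 250 bases before to 50 after the start. Most E2F matches lie near the start, while those of MCM6, POLA1 and LIG1 and the outer matches of MCM3 and MCM7 lie farther upstream.

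Genes with and without the E2F letters both stood lower in the knockdown. Of the 18 replication genes with a match 15 fell (83.3%), with a median log2 fold change of -0.48, and of the 15 with a promoter entry and no match 10 fell (66.7%), with a median of -0.37. The 3 with a match that were not called were PCNA, POLE2 and LIG1. Of 676 other tested genes with a match 148 were called lower (21.9%) and 95 higher (14.1%), beside 17.2% lower among all tested genes with a promoter entry. In MCM7 a CCAAT match shares 1 base with the E2F match nearest the start, and E2F matches on opposite strands share 4 bases in MCM2 and MCM6. These are descriptions of letters in a window and of calls, with no test between them.

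All 6 subunits of the MCM2-7 helicase fell, by similar amounts, with log2 fold changes of -0.49 to -0.67 and a median of -0.57. MCM7 was the most abundant subunit per transcript length, at 67.1 CPM per kb in shNSD2 and 101 in shCTR, and MCM6 the least, at 17.0 CPM per kb in shNSD2 and 23.8 in shCTR. MCM4 was at 176, 214 and 199.7 CPM in shNSD2 1, 2 and 3, against 310.1, 308 and 323 CPM in shCTR 1, 2 and 4, a log2 fold change of -0.67 (SE 0.0991, edgeR adjusted p = 0.00182). Its 3 knockdown libraries spanned 176 to 214 CPM, below every control library. MCM2 was at 137, 169 and 153 CPM in the shNSD2 libraries, against 235, 245 and 241 CPM in the shCTR libraries, or 63.6% of control (log2 fold change -0.65). MCM7 was at 190.0, 207 and 198 CPM in the shNSD2 libraries, against 292, 297 and 303 CPM in the shCTR libraries (log2 fold change -0.58). For both genes the control libraries lay close together and every knockdown library lay below them. MCM5 averaged 88.4 ± 12.6 CPM in shNSD2 and 130.4 ± 8.72 CPM in shCTR (SD, n = 3 each; log2 fold change -0.56), MCM3 132 ± 12.7 CPM in shNSD2 and 187 ± 15.9 CPM in shCTR (-0.51) and MCM6 63.5 ± 6.05 CPM in shNSD2 and 88.9 ± 9.40 CPM in shCTR (-0.49). In MCM3, MCM5 and MCM6, shCTR 4 was the highest library and the groups still did not overlap. The summed level of the 6 subunits was 750.5, 892 and 852 CPM in the shNSD2 libraries, against 1222, 1240.0 and 1313 CPM in the shCTR libraries, and all 6 were called lower in each of the 6 fits that left out 1 library. On GRCh38, MCM2 lies on chromosome 3 from 127598223 to 127622436, MCM4 on chromosome 8 from 47960185 to 47978160 and MCM7 on chromosome 7 from 100092728 to 100101940.

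The factors that turn the loaded ring into a moving helicase also fell, 6 of 6, with a median log2 fold change of -0.49. MCM10, which is needed to start unwinding, fell furthest among them. It was at 28.4, 37.8 and 35.5 CPM in shNSD2 1, 2 and 3, against 58.3, 57.3 and 64.1 CPM in shCTR 1, 2 and 4, or 56.6% of control (log2 fold change -0.82, SE 0.111, edgeR adjusted p = 0.00131). The lowest value belonged to shNSD2 1, and the lowest control was 57.3 CPM. GINS1, a subunit of the GINS ring, was at 53.4, 56.1 and 54.6 CPM in the shNSD2 libraries, against 85.3, 84.2 and 82.4 CPM in the shCTR libraries (log2 fold change -0.62, SE 0.0767, adjusted p = 9.08e-04). The libraries of each group lay close together. CDC45, a component of the active helicase, was at 37.5, 41.95 and 41.5 CPM in the shNSD2 libraries, against 60.0, 57.2 and 57.8 CPM in the shCTR libraries (log2 fold change -0.53, adjusted p = 0.00221). The groups were separate for CDC45 as well. The other GINS subunits had smaller fitted log2 fold changes, of -0.44 for GINS2, -0.40 for GINS3 and -0.37 for GINS4. Without shNSD2 1, 3 of the 6 were called, and GINS2, GINS3 and GINS4 missed the threshold. GINS2 also missed it without shCTR 2 or shNSD2 2, GINS3 without shNSD2 3, and GINS4 without shCTR 2, shNSD2 2 or shNSD2 3.

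At the origin itself the loaders fell while ORC2 did not pass the test. ORC1, the subunit of the origin recognition complex whose level varies through the cell cycle in human cells, was at 12.9, 17.8 and 13.3 CPM in shNSD2 1, 2 and 3, against 31.2, 27.2 and 24.3 CPM in shCTR 1, 2 and 4. That is 53.2% of control, a log2 fold change of -0.91 (SE 0.140, edgeR adjusted p = 0.00212), and the highest knockdown library lay below the lowest control, shCTR 4. ORC2, a core subunit of the same complex, was at 42.3, 45.0 and 48.4 CPM in the shNSD2 libraries, against 49.1, 46.5 and 51.9 CPM in the shCTR libraries, and the groups overlapped (log2 fold change -0.12, 95% interval -0.31 to 0.07, adjusted p = 0.317). Its direction depended on the correction applied, and offsets for GC content and length gave 0.02. ORC6, the smallest subunit, averaged 34.2 ± 6.50 CPM in shNSD2 and 49.7 ± 3.22 CPM in shCTR (SD, n = 3 each; log2 fold change -0.54, adjusted p = 0.0126). CDC6, the ATPase that recruits the helicase, was at 45.9, 64.8 and 61.1 CPM in the shNSD2 libraries, against 91.5, 89.6 and 103 CPM in the shCTR libraries (log2 fold change -0.72, adjusted p = 0.00341). Its lowest value was in shNSD2 1, and no knockdown library reached a control. CDT1, the partner of CDC6 in loading, was at 45.2, 50.5 and 53.4 CPM in the shNSD2 libraries, against 63.2, 62.1 and 65.6 CPM in the shCTR libraries (log2 fold change -0.36, adjusted p = 0.0139). The call of CDT1 was lost without shNSD2 1 or shNSD2 2, and its log2 fold change was -0.58 with GC content and length offsets. ORC1 lies on chromosome 1 from 52372829 to 52404459 and CDC6 on chromosome 17 from 40287633 to 40304657.

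Among the polymerases POLA1 had the largest fall, and 6 of 8 polymerase and primase genes passed the test, with a median log2 fold change of -0.32. POLA1, the catalytic subunit of polymerase alpha, was at 32.1, 33.5 and 33.8 CPM in shNSD2 1, 2 and 3, against 53.0, 53.5 and 51.8 CPM in shCTR 1, 2 and 4, a log2 fold change of -0.67 (SE 0.0779, edgeR adjusted p = 6.62e-04). The libraries within each group differed little and the groups did not overlap. POLA2, its regulatory subunit, averaged 33.9 ± 3.77 CPM in shNSD2 and 47.0 ± 1.40 CPM in shCTR (SD, n = 3 each; log2 fold change -0.47). PRIM1, the catalytic primase subunit that works in the same complex, was at 23.5, 24.5 and 24.8 CPM in the shNSD2 libraries, against 28.2, 31.5 and 30.9 CPM in the shCTR libraries (log2 fold change -0.31, adjusted p = 0.0227). PRIM2, the large primase subunit, was at 17.7, 19.5 and 22.2 CPM in the shNSD2 libraries, against 24.8, 21.7 and 27.9 CPM in the shCTR libraries, where shNSD2 3 exceeded shCTR 2 (log2 fold change -0.32, adjusted p = 0.0624). POLE, the catalytic subunit of the leading-strand polymerase, fell to 101 ± 2.70 CPM in shNSD2, against 135 ± 12.3 CPM in shCTR (SD, n = 3 each; log2 fold change -0.43), and its accessory subunit POLE2 had -0.27 (adjusted p = 0.0604) with no overlap of libraries. For polymerase delta, which extends the lagging strand, the catalytic subunit gene POLD1 had a log2 fold change of -0.27 (adjusted p = 0.0271) and POLD3 -0.31 (adjusted p = 0.0227). The number called fell to 3 of 8 without shCTR 2, shNSD2 1, shNSD2 2 or shNSD2 3, when PRIM1, POLD1 and POLD3 missed the threshold. With GC content and length offsets the log2 fold change was -0.26 for POLE, -0.45 for POLD1 and -0.19 for POLD3, which was then not called. POLD1 also missed the threshold without shCTR 1, and POLE2 passed without shCTR 4. POLA1 lies on chromosome X from 24693919 to 24996986 and POLE on chromosome 12 from 132623753 to 132687365.

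Of the clamp and its loader 2 of 5 genes were called lower, beside 15.2% of all genes tested. The median log2 fold change of the 5, -0.27, was the smallest of the complexes. PCNA, the sliding clamp, had the highest level per transcript length of the 38 genes, at 90.6 CPM per kb in shNSD2 and 109 in shCTR. It was at 110.1, 129 and 129.9 CPM in shNSD2 1, 2 and 3, against 136, 143 and 166 CPM in shCTR 1, 2 and 4, below every control in each knockdown library but not called (log2 fold change -0.27, 95% interval -0.51 to -0.04, edgeR adjusted p = 0.0752). PCNA passed the threshold without shCTR 1. RFC3, a loader subunit, was at 65.5, 66.7 and 61.2 CPM in the shNSD2 libraries, against 86.5, 91.6 and 84.5 CPM in the shCTR libraries and was called (log2 fold change -0.44, adjusted p = 0.00437). The other called subunit, RFC5, was at 33.1, 36.0 and 37.7 CPM in the shNSD2 libraries, against 45.0, 44.7 and 48.2 CPM in the shCTR libraries (log2 fold change -0.37), and missed the threshold without shNSD2 1. RFC4 was at 55.1, 58.3 and 64.9 CPM in the shNSD2 libraries, against 61.0, 60.3 and 71.0 CPM in the shCTR libraries, with shNSD2 3 above shCTR 1 and shCTR 2 (log2 fold change -0.11, 95% interval -0.33 to 0.11). RFC2 overlapped likewise, with a log2 fold change of -0.15 (95% interval -0.41 to 0.10). RFC3 lies on chromosome 13 from 33818049 to 33966558 and PCNA on chromosome 20 from 5114953 to 5126626.

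Of the pair that finishes lagging-strand fragments, FEN1 fell and LIG1 was not called. FEN1, the flap endonuclease, was at 67.5, 83.0 and 82.4 CPM in shNSD2 1, 2 and 3, against 126, 126 and 133 CPM in shCTR 1, 2 and 4, or 60.5% of control (log2 fold change -0.72, SE 0.0986, edgeR adjusted p = 0.00132). Every knockdown library was lower than every control. LIG1, the ligase, had a log2 fold change of -0.22 (95% interval -0.41 to -0.02, adjusted p = 0.0815) with no overlap of libraries. Chromatin assembly factor 1, which places histones H3 and H4 on new DNA behind the fork, fell in both measured subunits. CHAF1A was at 54.7, 63.4 and 60.6 CPM in the shNSD2 libraries, against 96.3, 96.3 and 82.7 CPM in the shCTR libraries (log2 fold change -0.62, adjusted p = 0.00208), with shCTR 4 the lowest control. CHAF1B averaged 26.3 ± 1.47 CPM in shNSD2 and 35.1 ± 1.75 CPM in shCTR (SD, n = 3 each; log2 fold change -0.41, adjusted p = 0.00761). FEN1 lies on chromosome 11 from 61792637 to 61797244.

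The regulators of S-phase entry held the largest and the smallest fitted change of the 38 genes, both in cyclin E genes, and 3 of 4 fell. CCNE2, which encodes cyclin E2, an activator of CDK2, was at 8.16, 11.6 and 12.4 CPM in shNSD2 1, 2 and 3, against 27.8, 23.5 and 19.7 CPM in shCTR 1, 2 and 4. That is 45.3% of control, a log2 fold change of -1.14 (SE 0.168, edgeR adjusted p = 0.00181), and shCTR 4 was the control nearest the knockdown libraries. CCNE1, which encodes the related cyclin E1, was at 17.2, 16.1 and 16.8 CPM in the shNSD2 libraries, against 17.7, 17.4 and 18.7 CPM in the shCTR libraries (log2 fold change -0.10, 95% interval -0.31 to 0.10, adjusted p = 0.421). The groups did not overlap, but shNSD2 1 nearly met shCTR 2, and GC content and length offsets gave -0.19. E2F1 was at 55.9, 63.7 and 61.5 CPM in the shNSD2 libraries, against 105, 100.2 and 90.5 CPM in the shCTR libraries, a log2 fold change of -0.71 (SE 0.0915, adjusted p = 0.00110). E2F2, a close relative of E2F1, was at 10.7, 13.0 and 13.2 CPM in the shNSD2 libraries, against 23.8, 19.5 and 19.6 CPM in the shCTR libraries (log2 fold change -0.77, adjusted p = 0.00260). In both E2F genes, all knockdown libraries lay below all controls, and shCTR 1 was the highest. E2F1 lies on chromosome 20 from 33675683 to 33686404, E2F2 on chromosome 1 from 23506430 to 23531220, CCNE1 on chromosome 19 from 29811898 to 29824308 and CCNE2 on chromosome 8 from 94879770 to 94896678. Whether reads were counted by strand is not given in the sources used here, and 37.0% of the CCNE2 exon bases (1629 bases) also lie in exons of INTS8 on the other strand, whose level of 78.5 CPM did not pass the test (log2 fold change 0.01, edgeR adjusted p = 0.910). Without strand, reads of both genes cannot be told apart there. Of the 38 genes, 17 share some exon bases with another annotated gene, and for 11 of these the other gene averaged at least 5 CPM.

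**Figure D3:**
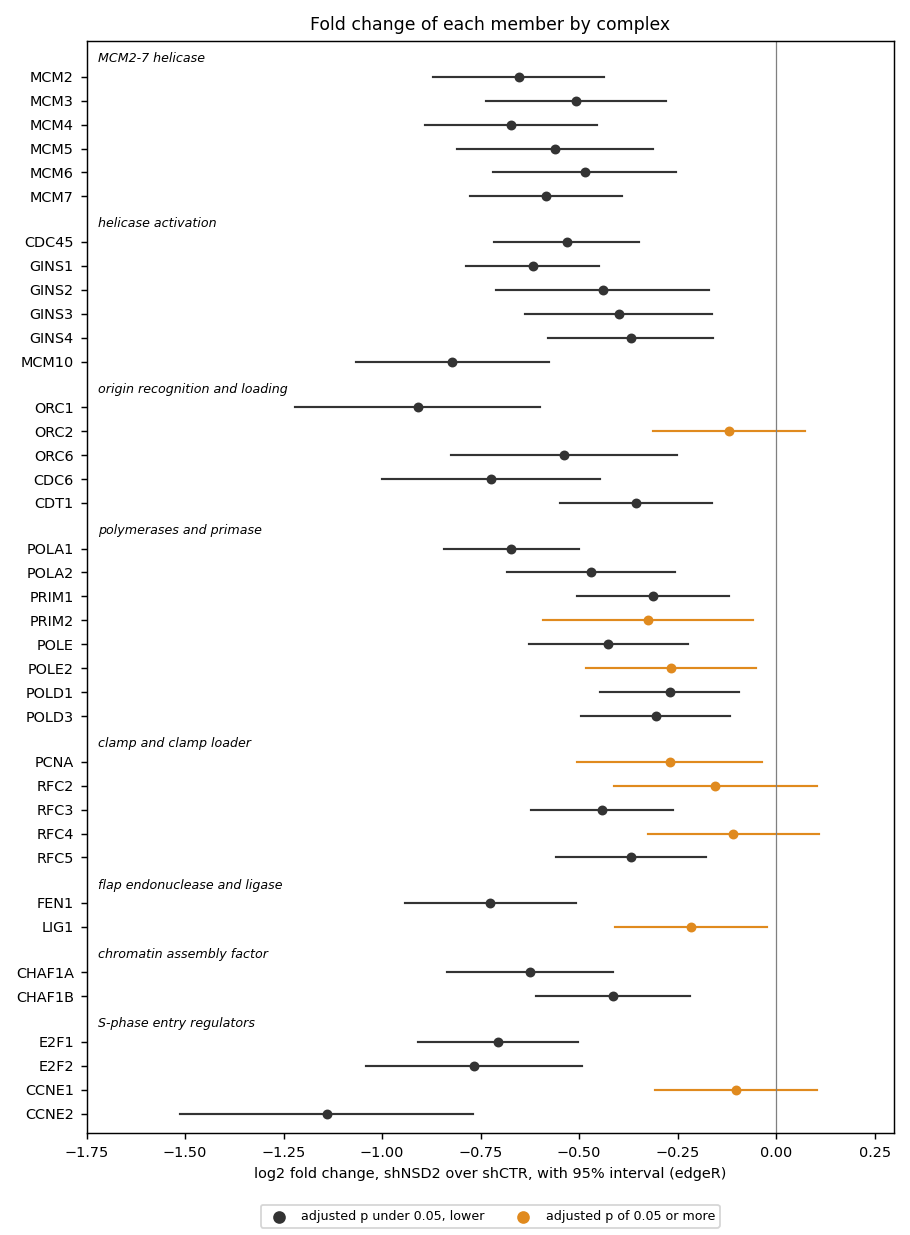
Log2 fold change of each gene, shNSD2 over shCTR, with its 95% interval from the edgeR fit (horizontal axis), listed by complex; dark points passed an adjusted p of 0.05 and orange points did not. All points lie left of 0, CCNE2 is farthest at -1.14, and the 8 orange genes include 3 of the 5 clamp and loader genes.

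Ratios within 4 pairs of genes are given as a description, since the pairs were picked after their values were seen. The cyclin E pair are related genes, while each other pair encodes subunits of the same complex. Levels in these ratios are per kilobase of transcript. The ratio of CCNE2 to CCNE1 was 0.291, 0.443 and 0.454 in the shNSD2 libraries, against 0.964, 0.830 and 0.648 in the shCTR libraries. The ratio of ORC1 to ORC2 was 0.418, 0.541 and 0.376 in the shNSD2 libraries, against 0.869, 0.800 and 0.641 in the shCTR libraries. In both pairs the highest knockdown ratio lay under the lowest control ratio, and shCTR 4 was the lowest control. The ratio of POLA1 to PRIM1 was 0.347, 0.347 and 0.345 in the shNSD2 libraries, against 0.477, 0.432 and 0.426 in the shCTR libraries. The ratio of RFC3 to RFC4 was 0.716, 0.690 and 0.568 in the shNSD2 libraries, against 0.855, 0.916 and 0.717 in the shCTR libraries, and its highest knockdown ratio, 0.716, nearly met the lowest control ratio, 0.717.

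**Figure D4:**
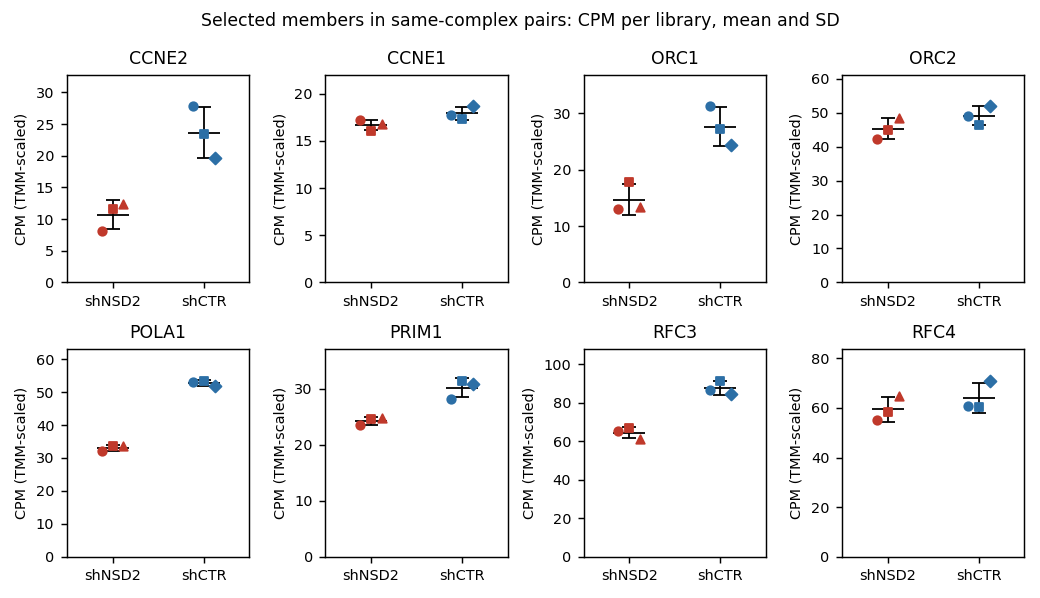
CPM of 8 genes in each library (points), with the mean and SD of each group (horizontal and vertical bars), for shNSD2 on the left and shCTR on the right of each panel; circles are library 1, squares library 2, triangles shNSD2 3 and diamonds shCTR 4. CCNE2, ORC1, POLA1 and RFC3 show a wide gap between groups, while ORC2 and RFC4 overlap and CCNE1 nearly meets.

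Other genes of the same process were lower in part. Of 42 accessory fork and origin factors 20 fell (47.6%, beside 15.2% of all genes) and 2 rose (4.76%, beside 15.5% of all genes), with a median log2 fold change of -0.24. CLSPN, which encodes the checkpoint adaptor claspin, was at 16.4, 23.4 and 21.3 CPM in the shNSD2 libraries, against 48.4, 43.1 and 39.5 CPM in the shCTR libraries (log2 fold change -1.10, edgeR adjusted p = 7.71e-04). MCM8, a relative of the helicase subunits that acts in homologous recombination, had a log2 fold change of -0.74, and UHRF1, which brings maintenance methylation to new DNA, -0.81. The 2 that rose were POLD4 and POLE4. POLD4, a small subunit of polymerase delta, was at 8.41, 9.55 and 11.1 CPM in the shNSD2 libraries, against 4.89, 5.06 and 6.15 CPM in the shCTR libraries (log2 fold change 0.85, adjusted p = 0.00375). POLE4, a small subunit of polymerase epsilon, averaged 39.2 ± 2.19 CPM in shNSD2 and 29.1 ± 4.90 CPM in shCTR (SD, n = 3 each; log2 fold change 0.43, adjusted p = 0.0208), and its call was lost without shCTR 1, shCTR 2, shNSD2 2 or shNSD2 3, each of which left 1 gene called higher. Over all genes 1491, 1172, 1467 and 1116 were called higher in these fits, beside 2658 with every library. Without shCTR 4, 4 were called higher, where 4251 of all genes were.

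Of 11 genes of nucleotide supply and turnover 6 were called lower (54.5%, beside 15.2% of all genes). Called higher were 0 (beside 15.5% of all genes), and the median log2 fold change was -0.31. RRM2, the S-phase subunit of ribonucleotide reductase, was at 43.0, 60.2 and 56.3 CPM in the shNSD2 libraries, against 103, 96.5 and 95.9 CPM in the shCTR libraries (log2 fold change -0.89, edgeR adjusted p = 0.00118). No knockdown library reached the controls. TYMS, thymidylate synthase, had a log2 fold change of -0.66 and SLC29A1, a nucleoside transporter, -0.74. The count was 3 without shCTR 2, shNSD2 1 or shNSD2 2. Over all genes 1461, 1607 and 1575 were called lower in these fits, beside 2605 with every library.

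Of 30 other regulators of the G1/S step that were tested (31 were listed, and CCND2 had too few reads), 13 fell (43.3%, beside 15.2% of all genes) and 4 rose (13.3%, beside 15.5% of all genes), with a median log2 fold change of -0.17. The share that rose was thus no higher than over all genes. RBL1, the RB relative p107, was at 22.6, 24.2 and 23.1 CPM in the shNSD2 libraries, against 51.0, 44.6 and 41.6 CPM in the shCTR libraries (log2 fold change -0.97, edgeR adjusted p = 4.18e-04). E2F7 and E2F8, repressive members of the E2F family, had log2 fold changes of -1.09 and -0.81. The 4 that rose were CDKN1A, CDKN1C, CDKN2D and CDKN2A. CDKN1A, which encodes the kinase inhibitor p21, was at 132, 124 and 121 CPM in the shNSD2 libraries, against 83.2, 87.0 and 88.2 CPM in the shCTR libraries (log2 fold change 0.54, adjusted p = 0.00191). CDKN1C, which encodes p57, was at 2.40, 1.797 and 2.52 CPM in the shNSD2 libraries, against 0.489, 0.964 and 0.730 CPM in the shCTR libraries (log2 fold change 1.61, adjusted p = 0.00346), resting on 10 to 52 counts per library. Both kept their call in every fit that left out 1 library. CDKN2D had 0.38 (adjusted p = 0.0240), a call lost without shCTR 1, shCTR 2, shNSD2 1 or shNSD2 3, and CDKN2A 0.31 (adjusted p = 0.0491), lost when any library other than shCTR 4 was left out. With GC content and length offsets CDKN2D had 0.13 and CDKN2A 0.18, and neither was called. Leaving out shCTR 1, shCTR 2, shNSD2 1 or shNSD2 3 brought the number called higher to 2. Over all genes 1491, 1172, 1379 and 1116 were called higher in these fits, beside 2658 with every library.

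Mitotic genes, which cells express later in the cycle, fell in 14 of 30 cases (46.7%, beside 15.2% of all genes) and rose in 1 (3.33%, beside 15.5% of all genes). Their median log2 fold change was -0.25. Their summed level was 2773, 2782 and 2826 CPM in the shNSD2 libraries, against 3533, 3445 and 3507 CPM in the shCTR libraries. Like that of the replication genes, this sum was lower in every shNSD2 library than in every shCTR library. Within the controls it was highest in shCTR 1, while the replication sum was highest in shCTR 4. The part of the mitotic genes in the result was not tested. ANLN, which encodes the cytokinesis scaffold anillin, had a log2 fold change of -0.61 (edgeR adjusted p = 0.00171) and BUB1B, a spindle checkpoint kinase, -0.39 (adjusted p = 0.00606). MKI67, the gene of the proliferation antigen Ki-67, was at 221, 224 and 199.8 CPM in the shNSD2 libraries, against 521, 454 and 303 CPM in the shCTR libraries (log2 fold change -0.99, adjusted p = 0.00334), and shCTR 4 lay well under the other controls. PTTG1, securin, was the 1 that rose (log2 fold change 0.53, adjusted p = 0.0295), and it lost the call when any library other than shCTR 4 was left out. Without shCTR 4, 2 were called higher, where 4251 of all genes were, beside 2658 with every library. The number lower was 7 without shCTR 2 and 6 without shNSD2 1, shNSD2 2 or shNSD2 3. Over all genes 1461, 1607, 1575 and 1320 were called lower in these fits, beside 2605 with every library.

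**Figure D5:**
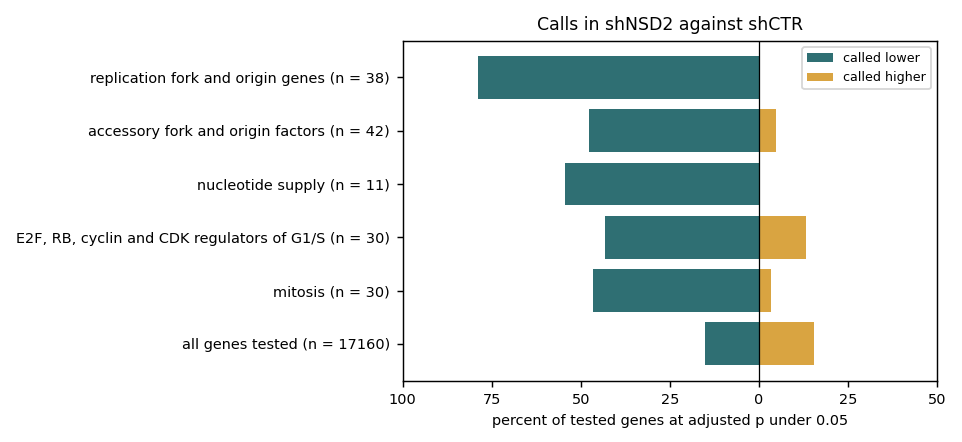
Percent of the tested genes of each list that were called lower (bars to the left) or higher (bars to the right) in shNSD2 against shCTR at an adjusted p under 0.05, with the number of genes tested beside each name. The replication fork and origin genes show 78.9% lower and 0% higher, and all genes tested 15.2% lower and 15.5% higher.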

How the data were processed

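The authors deposited raw read counts per gene for 6 libraries, judged from whole numbers that sum to unequal totals. Per the labels' protocols, RNA was isolated with a Qiagen kit and polyadenylated RNA went into libraries by a KAPA mRNA kit. Per the submitters' processing notes, the tools were CASAVA 1.8.2 and STAR 2.6.0a, with GRCh38 as the build. For the counting program, annotation and strand setting, nothing is given in the sources used here, so reads of overlapping or near-identical genes may be split.

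Counts were fitted with edgeR 4.0.16 (R 4.3.3): filterByExpr by group, TMM, the quasi-likelihood test without covariates and Benjamini-Hochberg adjustment over 17160 genes, with calls at an adjusted p under 0.05. The filter removed 14253 genes. Standard errors come from the fold change and its F statistic. The common biological coefficient of variation was 0.106. No 2 libraries of a group had counts alike within counting noise. Groups came from the sample titles. Gene coordinates, lengths and overlaps came from GENCODE 29, and levels per kilobase use each gene's principal transcript. Promoters came from RefSeq on GRCh38.p14, with MCM4, MCM5, GINS4, POLD3 and CCNE2 having no entry.

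All 38 genes are named. From each further list the text names the 3 called genes of smallest p and, where they were 5 or fewer, those of the rarer direction. The members and lists were chosen with earlier results of these data known. Alternatives were DESeq2 size factors, upper-quartile factors, plain library size, the DESeq2 1.42.0 Wald test, limma-voom (limma 3.58.1), no low-count filter, at least 1 CPM in 3 libraries, a replicate block, GC content and length offsets, a fold threshold of 1.2 and each library left out in turn. Some marker genes are not reported here.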

Additional observations from a re-analysis of the deposited data

How the results depend on the processing

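All 38 genes kept a negative log2 fold change under every alternative except ORC2, at 0.0245 with GC content and length offsets. Between 28 and 30 were called lower under every alternative other than the fold threshold and the leave-out fits, and 16 were called under all 16 alternatives. Outside those fits POLD3 lost its call with the DESeq2 Wald test, GC content and length offsets and the block, GINS3 with the block and POLD1 without a low-count filter, while PCNA gained a call with the offsets. The offsets moved the fitted log2 fold change of CDT1, POLE, POLD1, POLD3, RFC2 (to -0.26) and CCNE1 by over 1.5 times. With the offsets NSD2 itself had -0.96, beside -1.30 in the main fit. Against a fold of 1.2, 1160 genes were lower and 905 higher, among them 16 of the 38, with 3 for helicase activation, 2 for origin genes, 1 for polymerases and primase, 0 for the clamp and loader and 1 for chromatin assembly. At that threshold the accessory list had 9 of 42 lower and 1 higher, and nucleotide supply 3 of 11 lower. G1/S regulators had 8 of 30 lower and 2 higher, and mitosis 2 of 30 lower and 0 higher. Over all 17160 genes tested 6.76% were lower at that threshold, so the mitosis count was near that share. Leaving out each library in turn gave 1320 to 4011 genes lower and 1116 to 4251 higher, with 22 to 31 of the 38 lower. By complex the range was 3 to 6 for helicase activation, 3 to 7 for polymerases and primase and 1 to 3 for the clamp and loader. It was 1 to 4 higher for the accessory list, 3 to 7 lower for nucleotide supply, 2 to 5 higher for G1/S regulators, and 6 to 14 lower and 0 to 2 higher for mitosis. These fits hold fewer libraries, and the cause of each shift was not tested. The numbers 1 and 2 occur in both groups, but the labels do not say that they mark pairs, and none were assumed. Deviations of same-numbered libraries from their group means had r = 0.0397 and -0.174 over 11218 genes. Such deviations cancel within each group, so these values cannot exclude pairing. Between differently numbered libraries r ran from -0.428 (shNSD2 3 with shCTR 2) to 0.471 (shNSD2 1 with shCTR 2). What lies behind these values was not tested. With the number as a replicate block, 28 of the 38 were lower, their median was -0.48, NSD2 had -1.36, and 3001 genes were lower and 3242 higher. In that fit shNSD2 3 and shCTR 4 share no number with the other group. Its fold changes therefore rest on libraries 1 and 2 of each group, and it is no check on all 6. The effect of sequencing depth on the calls was not tested.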
